A study of Homo sapiens with 4 samples.

Results

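The 10 genes described here encode amino acid transporters of the SLC7 family and their partners, namely SLC7A1, SLC7A2, SLC7A5, SLC7A6, SLC7A7, SLC7A8, SLC7A11, SLC3A1, SLC3A2 and SLC1A5. They were taken by gene symbol from a table of 23143 symbols, and all 10 were found. The group was selected on the FPKM of SLC7A8, which was higher with doxycycline, so its values are a description and carry no test. RNA was sequenced from A549, a human lung adenocarcinoma line, in 4 libraries of polyadenylated RNA. In 2 libraries (DOX) doxycycline had been added and GATA4, a DNA-binding regulator of heart and gut development, was overexpressed. In 2 libraries (noDOX) the cells had a vehicle and a normal level of GATA4. The construct, its promoter, the number of clones and the length of treatment were not given in the sources used here. Doxycycline-treated cells without the construct were not analysed here, so an effect of the drug and an effect of GATA4 cannot be told apart.

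Amino acids cross the plasma membrane through carriers of several families. The light chains of SLC7 are mostly exchangers that reach the cell surface bound by a disulfide bond to a heavy chain, SLC3A2 (CD98) or SLC3A1 (rBAT). The cationic carriers SLC7A1 and SLC7A2 work without a heavy chain. SLC7A8 encodes LAT2, a light chain of SLC3A2 that exchanges large and small neutral amino acids and is best known from the basolateral membrane of kidney and gut epithelium.

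Values are FPKM, fragment numbers scaled for transcript length, so that levels of different genes can be set side by side, and for library size. How library size was scaled was not given in the sources used here. GATA4 was at 75.0 and 48.0 FPKM in DOX libraries 1 and 2, and at 12.2 and 14.5 FPKM in noDOX libraries 1 and 2, with both DOX values above both noDOX values, as labelled. The difference missed the threshold over all genes tested (limma, adjusted p = 0.289). All 6 epithelial marker genes were above a mean of 1 FPKM, and their sum, mostly keratins, ran from 5016 to 9623 FPKM in DOX and from 5582 to 7812 FPKM in noDOX libraries. EPCAM was at 3.83 and 3.08 FPKM in DOX and at 8.27 and 13.7 FPKM in noDOX libraries (log2 difference -1.40; limma, adjusted p = 0.494), KRT7 was also lower in both DOX libraries, and the other 4 overlapped. The part of these differences in the results was not tested. Of 5 blood markers only CD14 was above a mean of 1 FPKM, and CD3E was listed at 0. Of 5 fibroblast markers only COL1A1 was, and DCN was listed at 0. The sum of 5 endothelial markers was under 0.2 FPKM in each library. Low values of genes with 1 annotated transcript fell in steps, from which about 37400000 and 24400000 fragments were estimated for DOX libraries 1 and 2, and 33300000 and 38700000 for noDOX libraries 1 and 2. The libraries did not pair off by treatment at most genes. In 59.9% of the 12504 tested genes DOX library 2 and noDOX library 1 lay both above or both below the other 2 libraries, whereas in 32% the DOX libraries lay both above or both below the noDOX libraries. The summed FPKM outside small RNA genes was also larger in that pair, at 755157 in DOX library 2 and 900263 in noDOX library 1, against 568294 in DOX library 1 and 575373 in noDOX library 2.

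Start-site sequences of SLC7A8 are shown because it had the largest difference of the 10 genes, and that of SLC7A5, another exchanger of large neutral amino acids, is shown beside them because its groups overlapped. RefSeq (GRCh38.p14) has 4 start-site windows for SLC7A8, each from 250 bases before to 50 bases after a start. The window left out overlaps the second one shown. Capitals mark the word AGATAA or its variant AGATAG, and the word TGATAA or its variant TGATAG, forms of the core that GATA factors are known to bind, searched on both strands.
SLC7A8, chr14:23183611-23183910, minus strand: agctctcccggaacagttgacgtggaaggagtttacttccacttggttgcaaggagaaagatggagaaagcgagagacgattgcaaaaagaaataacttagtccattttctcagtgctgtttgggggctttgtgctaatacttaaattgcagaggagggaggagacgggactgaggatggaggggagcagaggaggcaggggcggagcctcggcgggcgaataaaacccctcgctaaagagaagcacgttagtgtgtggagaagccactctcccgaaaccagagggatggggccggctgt
SLC7A8, chr14:23155409-23155708, minus strand: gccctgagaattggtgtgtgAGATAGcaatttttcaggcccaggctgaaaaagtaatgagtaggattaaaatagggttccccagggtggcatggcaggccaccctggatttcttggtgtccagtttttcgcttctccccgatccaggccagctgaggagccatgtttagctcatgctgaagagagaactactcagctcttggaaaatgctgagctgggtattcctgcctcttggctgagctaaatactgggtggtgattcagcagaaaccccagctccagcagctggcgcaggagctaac
SLC7A8, chr14:23154344-23154643, minus strand: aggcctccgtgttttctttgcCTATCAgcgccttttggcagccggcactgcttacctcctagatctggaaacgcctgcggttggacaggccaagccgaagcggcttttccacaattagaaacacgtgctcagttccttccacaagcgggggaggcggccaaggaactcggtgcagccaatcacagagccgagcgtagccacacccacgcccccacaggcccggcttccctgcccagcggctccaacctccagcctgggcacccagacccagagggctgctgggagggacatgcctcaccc
SLC7A5, chr16:87869458-87869757, minus strand: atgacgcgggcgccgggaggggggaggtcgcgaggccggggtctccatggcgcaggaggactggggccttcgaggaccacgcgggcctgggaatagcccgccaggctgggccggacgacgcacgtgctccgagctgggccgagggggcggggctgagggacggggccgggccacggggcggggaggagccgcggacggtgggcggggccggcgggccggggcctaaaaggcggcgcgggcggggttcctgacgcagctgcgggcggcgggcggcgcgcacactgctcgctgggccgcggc

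Of the 4 SLC7A8 windows 2 held such a word, AGATAG from base -230 to -225 of its start and TGATAG on the opposite strand from base -229 to -224. The window farthest upstream held none, and neither did the SLC7A5 window. Of all 35116 RefSeq windows of this length 25.0% held at least 1 of the words, and of 319 genes with 4 windows 54.5% had one in some window. Windows were found for 7 of the 10 genes, 16 in all, and 3 held a word, the other being in SLC7A7. Windows on chromosome 8, where SLC7A2 lies, were left out for the 10 genes, though not from the count over all windows. Whether SLC7A2 has a window or a word was therefore not looked up. SLC7A11 and SLC3A1 had no entry. The SLC7A8 windows had a GC content of 51.7 to 63.0% and 2 to 16 CG pairs, against 80.3% and 44 CG pairs in the SLC7A5 window and a median of 58.7% and 14 over all windows. The SLC7A7 windows, of a gene whose groups overlapped, were like those of SLC7A8, at 49.0 to 57.7% and 1 to 5 CG pairs. Those of SLC3A2 and SLC1A5 had 60.7 to 66.7% GC, and those of SLC7A6 and SLC7A1 had 78.7 and 82.0%. A match to letters is a description and does not show that GATA4 binds there.

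SLC7A8 was at 20.6 and 12.9 FPKM in DOX libraries 1 and 2, and at 0.0453 and 0.126 FPKM in noDOX libraries 1 and 2. Both DOX libraries were above both noDOX libraries, with means of 16.8 ± 5.4 FPKM in DOX and 0.0855 ± 0.0568 FPKM in noDOX cells (SD, n = 2 each), a ratio of 196. On the log2(FPKM + 1) scale, which understates the change of low genes, the difference was 4.0, the second largest among 12112 genes outside the small RNA classes after FAM151A. With a pseudocount of 0.1 it was 6.50. The noDOX level rested on few fragments. For the longest annotated coding transcript, of 4.22 kb, the values stand for about 3250 and 1330 fragments in DOX libraries 1 and 2, and for about 6.36 and 20.5 fragments in noDOX libraries 1 and 2. With the median coding length of 1.79 kb they stand for about 1370 and 563 fragments in DOX, and 2.7 and 8.67 in noDOX libraries 1 and 2. The ratio is therefore imprecise on its noDOX side. In bulk RNA, a higher level in each cell and a larger share of cells with the transcript cannot be told apart. Within the DOX group, library 1 had the higher value of both SLC7A8 and GATA4.

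Among the 10 genes SLC7A8 ranked 5th and 6th in DOX libraries 1 and 2, and 10th in both noDOX libraries. In DOX cells the highest means belonged to SLC1A5, at 200.3 ± 87.7 FPKM, and SLC3A2, at 196 ± 63 FPKM (SD, n = 2). SLC7A7 followed at 79.6 ± 30.7 FPKM and SLC7A5 at 53.5 ± 3.2 FPKM. SLC7A11 at 18.1 ± 0.8 FPKM and SLC7A8 at 16.8 ± 5.4 FPKM came next, and their libraries overlapped. SLC7A1, SLC7A2, SLC7A6 and SLC3A1 had means from 5.16 to 7.41 FPKM, with overlapping libraries between each neighbour in that order. In noDOX cells the first 5 places were held by the same genes in the same order, SLC1A5, SLC3A2, SLC7A7, SLC7A5 and SLC7A11. SLC7A1 and SLC7A2 overlapped there, as did SLC1A5 with SLC3A2, SLC7A7 with SLC7A5 and SLC7A11 with SLC7A2. SLC7A6 and SLC3A1 averaged 4.82 ± 0.21 and 3.19 ± 1.39 FPKM (SD, n = 2), above SLC7A8 in each library.

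None of the 9 genes other than SLC7A8 passed the test, in a fit over the 12504 genes that averaged 1 FPKM or more (limma, adjusted p = 0.935 to 0.999), and 0 had an unadjusted p under 0.05. In that fit 0.088% of all genes were called, 0.024% higher and 0.064% lower in DOX, and 6.34% had an unadjusted p under 0.05. All 10 genes passed the filter on low values, SLC7A8 through its DOX libraries alone. In 3 of the 9 genes, SLC3A1, SLC7A6 and SLC7A11, both DOX libraries were above both noDOX libraries, and in 0 both were below. Over all tested genes these shares were 14.7% and 17.3%. The labels do not say whether libraries of a group came from separate cultures, so p-values measure only how far these libraries differ, and that spread may be technical. An exact permutation test of 2 against 2 libraries cannot go below p = 0.33.

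Of the heavy chains, SLC3A2 is the partner of most light chains and also binds integrins. It was at 152 and 241 FPKM in DOX libraries 1 and 2, and at 251 and 112 FPKM in noDOX libraries 1 and 2. The groups overlapped, and the high values were those of DOX library 2 and noDOX library 1. The log2 difference was 0.19 with a standard error of 0.53 (limma, adjusted p = 0.999), and its sign turned to -0.14 without DOX library 2 and to -0.39 without noDOX library 2.

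SLC3A1, mutated in the kidney stone disease cystinuria, pairs with SLC7A9 to take up cystine and dibasic amino acids. It was at 5.69 and 4.63 FPKM in DOX libraries 1 and 2, and at 4.17 and 2.2 FPKM in noDOX libraries 1 and 2. The groups did not overlap, with a log2 difference of 0.59 (SE 0.30; limma, adjusted p = 0.935). Its partner SLC7A9 was far lower, at 0.291 and 0.270 FPKM in DOX and 0.160 and 0.216 FPKM in noDOX libraries. SLC3A1 shares 1923 exon bases in GENCODE 29 with PREPL, a gene of the opposite strand whose level was 15.9 and 12.6 FPKM in DOX and 13.6 and 14.6 FPKM in noDOX libraries, and 1761 with AC013717.1 on its own strand. As the strand setting was not stated, reads of these genes may be mixed and the values of SLC3A1 are uncertain.

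Among the light chains of SLC3A2, SLC7A5 (LAT1) exchanges large neutral amino acids and is abundant in many tumours. It was at 51.3 and 55.8 FPKM in DOX libraries 1 and 2, and at 61.1 and 44.7 FPKM in noDOX libraries 1 and 2. The DOX values lay between the noDOX values, and the log2 difference was 0.03 with a standard error of 0.27 (limma, adjusted p = 0.999), with a sign that turned without DOX library 2 (-0.03) or noDOX library 2 (-0.19). Its pseudogene copies SLC7A5P1 and SLC7A5P2, which can share its reads, averaged 4.52 ± 0.12 and 0.977 ± 0.013 FPKM in DOX cells, and 3.62 ± 1.3 and 1.04 ± 0.07 FPKM in noDOX cells (SD, n = 2 each). The ratio of SLC7A8 to SLC7A5 was 0.401 and 0.232 in DOX libraries 1 and 2, against 7.41e-04 and 0.00281 in noDOX libraries 1 and 2.

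SLC7A7 and SLC7A6 exchange cationic for neutral amino acids with sodium, and loss of SLC7A7 causes lysinuric protein intolerance. SLC7A7 was at 101 and 57.9 FPKM in DOX libraries 1 and 2, and at 46.7 and 71.9 FPKM in noDOX libraries 1 and 2. The groups overlapped, with DOX library 1 the highest, and the log2 difference was 0.40 with a standard error of 0.41 (limma, adjusted p = 0.999). Without DOX library 1 it was -0.0019. SLC7A7 lies on chromosome 14 with SLC7A8, on the same strand and with 16 protein-coding genes between them. SLC7A6 was at 5.38 and 5.15 FPKM in DOX and at 4.97 and 4.67 FPKM in noDOX libraries. Its groups did not overlap, but the log2 difference was 0.11 with a standard error of 0.17 (limma, adjusted p = 0.999), and 3371 of its exon bases are shared with SLC7A6OS on the other strand, at 8.18 ± 0.18 FPKM in DOX and 7.36 ± 0.42 FPKM in noDOX cells (SD, n = 2 each).

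SLC7A11 (xCT) imports cystine in exchange for glutamate and so feeds glutathione synthesis. It is a known target of NRF2, whose inhibitor KEAP1 is mutated in A549. SLC7A11 was at 17.6 and 18.7 FPKM in DOX libraries 1 and 2, and at 16.7 and 15.5 FPKM in noDOX libraries 1 and 2. Both DOX values were above both noDOX values by a narrow margin, with a log2 difference of 0.17 (SE 0.19; limma, adjusted p = 0.999).

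The light chains of SLC3A2, counted as SLC7A5, SLC7A6, SLC7A7, SLC7A8, SLC7A10 and SLC7A11, summed to 197 and 151 FPKM in DOX libraries 1 and 2, and to 130 and 138 FPKM in noDOX libraries 1 and 2. SLC7A8 made up 10.5 and 8.58% of that sum in the DOX libraries, against 0.0349 and 0.0911% in the noDOX libraries. Without SLC7A8 the sums were 176 and 138 FPKM in DOX, and 130 and 138 FPKM in noDOX libraries, and SLC7A7 held 51.5% of the sum in DOX library 1. SLC7A7 and SLC7A5 together held most of the sum in each library. The sum was 1.30 and 0.626 times the SLC3A2 level in DOX libraries 1 and 2, and 0.516 and 1.24 times in noDOX libraries 1 and 2.

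Of the cationic carriers, SLC7A1 (CAT1) supplies arginine and lysine to most cells. It was at 6.96 and 7.85 FPKM in DOX libraries 1 and 2, and at 7.89 and 7.53 FPKM in noDOX libraries 1 and 2. The groups overlapped and the 4 libraries lay within a ratio of 1.13, with a log2 difference of -0.05 (SE 0.17; limma, adjusted p = 0.999), which turned to 0.065 when libraries were scaled to their sum outside small RNA genes and to 0.024 without DOX library 1. SLC7A2 (CAT2), best known from liver and from activated macrophages, was at 7.12 and 3.67 FPKM in DOX libraries 1 and 2, and at 5.67 and 16.9 FPKM in noDOX libraries 1 and 2. Only noDOX library 2 was high, the groups overlapped, and the log2 difference of -0.83 (SE 0.57; limma, adjusted p = 0.989) was -0.12 without that library.

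SLC1A5 (ASCT2), a sodium-dependent exchanger of glutamine and other neutral amino acids, belongs to another family and was the most abundant gene of the set by its group means. It was at 138 and 262 FPKM in DOX libraries 1 and 2, and at 275 and 168 FPKM in noDOX libraries 1 and 2. As for SLC3A2, the high values were DOX library 2 and noDOX library 1. The log2 difference was -0.17 with a standard error of 0.48 (limma, adjusted p = 0.999), and it turned to 0.29 without DOX library 1 and to 0.18 without noDOX library 1.

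The same 2 libraries were the higher pair for SLC3A2, SLC1A5, SLC7A5 and SLC7A1, and the lower pair for SLC7A2 and SLC7A7, so 6 of the 10 genes followed the grouping seen in 59.9% of all genes. When each library was scaled to its sum outside small RNA genes, the highest library of SLC3A2 was 1.65 times the lowest, against 2.26 as deposited, and for SLC1A5 it was 1.43 against 1.99. For SLC7A7 and SLC7A2 the ratios were 3.44 and 6.05 on that scale, against 2.17 and 4.61 as deposited. The groups of SLC7A6 and SLC7A11, apart as deposited, overlapped on that scale, with SLC7A6 at 6.62 and 4.77 in DOX and 3.87 and 5.69 in noDOX libraries, and SLC7A11 at 21.6 and 17.3 in DOX and 12.95 and 18.9 in noDOX libraries. Those of SLC3A1 did not, at 7.0 and 4.29 in DOX and 3.24 and 2.68 in noDOX libraries. The part of the library sum in these spreads was not tested further.

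**Figure D1:**
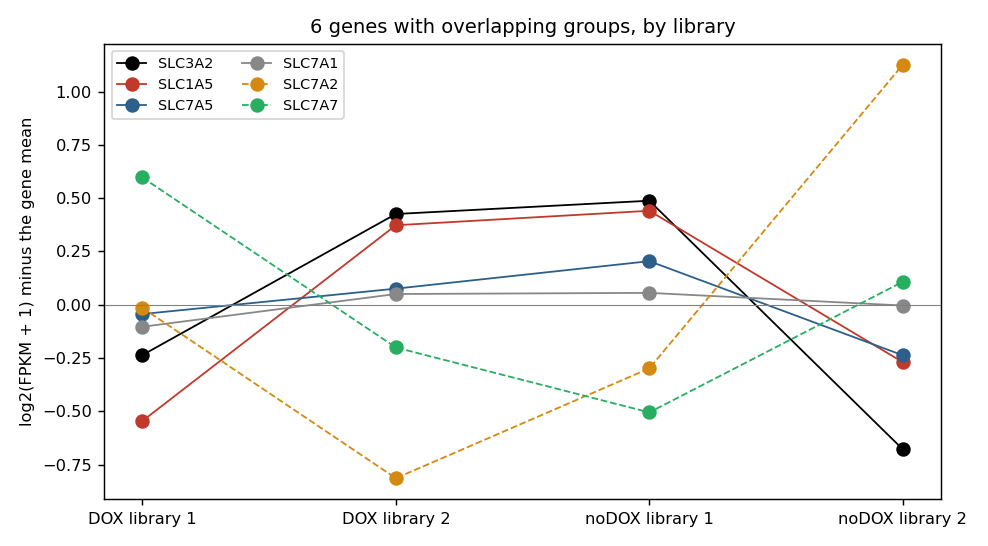
log2(FPKM + 1) minus the mean of the gene over 4 libraries, for the 6 genes whose groups overlapped; lines only link the points of a gene. DOX library 2 and noDOX library 1 are above the other 2 libraries for SLC3A2, SLC1A5, SLC7A5 and SLC7A1 (solid) and below them for SLC7A2 and SLC7A7 (dashed).

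The pattern nearest to that of SLC7A8, by the distance between gene-centred log2(FPKM + 1) values over the 4 libraries, was that of FAM151A (distance 0.46), followed by CNTFR (0.48), F10 (0.66), TM4SF5 (0.69) and CD36 (0.70), where the median of 12102 genes was 4.09. These genes were picked for their likeness, so their levels are a description. CNTFR, a receptor subunit for ciliary neurotrophic factor, was at 17.4 and 9.26 FPKM in DOX and at 0.0715 and 0.277 FPKM in noDOX libraries. F10, the clotting factor X made mainly in liver, was at 19.5 and 9.57 FPKM in DOX and at 0.456 and 0.344 FPKM in noDOX libraries. CD36, a fatty acid receptor, was at 12.2 and 7.32 FPKM in DOX and at 0.0350 and 0.0912 FPKM in noDOX libraries. As for SLC7A8, DOX library 1 was above DOX library 2 in all 5, an order that itself enters the distance. The distance is not scaled for the size of a change, so genes without a like rise lie far from SLC7A8. By difference outside the small RNA classes the 5 genes, in that order, ranked 1, 4, 6, 3 and 7. The closest other SLC7 or partner gene of the set was at a distance of 3.46.

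The protein-coding genes beside SLC7A8 on chromosome 14, looked up after its values were seen, had ratios of the DOX mean to the noDOX mean between 0.911 and 1.22 where they were tested. CEBPE, untested and next to it on one side, was at 0.0721 and 0 FPKM in DOX and at 0.0265 and 0 FPKM in noDOX libraries. RNF212B, next to SLC7A8 on the other side, was not among the symbols listed, and neither was CIROP, beyond CEBPE. Their levels are therefore unknown. Beyond RNF212B, HOMEZ was at 3.73 ± 0.71 FPKM in DOX and 3.41 ± 0.02 FPKM in noDOX cells (SD, n = 2 each). PPP1R3E was at 1.46 ± 0.21 FPKM in DOX and 1.60 ± 0.00 FPKM in noDOX cells (SD, n = 2 each). SLC7A8 shares no exon bases with another gene in GENCODE 29.

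The remaining 6 SLC7 carriers were at low levels. SLC7A3 and SLC7A13 were listed at 0 in all 4 libraries, SLC7A4 and SLC7A14 stayed under 0.1 FPKM, and SLC7A10, another light chain of SLC3A2, was at 0.619 and 0.251 FPKM in DOX and 0.212 and 1.0 FPKM in noDOX libraries. With SLC7A9, these 6 were all below the filter.

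Of 29 amino acid carriers of other families 12 were tested, and 0 were called in either direction (limma). Among the 12, 2 had an unadjusted p under 0.05, against 6.34% of all genes tested. Their median log2 difference was 0.01, against -0.04 over all genes tested, and 4 of 12 had groups that did not overlap, against 32% of all genes. Those 2 genes had the largest differences. SLC43A2 (LAT4), a facilitative carrier of branched-chain and other large neutral amino acids, was at 39.0 and 26.4 FPKM in DOX libraries 1 and 2, and at 5.69 and 6.53 FPKM in noDOX libraries 1 and 2. Both DOX values were above both noDOX values, 5.35 times as high by the means, with a log2 difference of 2.22 (SE 0.26; limma, adjusted p = 0.218). SLC1A1 (EAAC1), which takes up glutamate, aspartate and cysteine, was at 19.9 and 6.98 FPKM in DOX and at 1.98 and 3.03 FPKM in noDOX libraries, a log2 difference of 1.90 (SE 0.51; limma, adjusted p = 0.605). SLC36A1, a proton-coupled carrier of lysosomes, had a log2 difference of 0.47 and SLC38A1, a glutamine importer, one of -0.38, and both missed the threshold.

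Glutathione synthesis uses the cystine that SLC7A11 brings in. Of its 9 genes 0 were called (limma) and 3 had an unadjusted p under 0.05, against 6.34% of all genes tested. The median log2 difference of the 9 was 0.21, and 4 of 9 had groups that did not overlap, against 32% of all genes. GCLC, the catalytic subunit of the first step, was at 179 and 177 FPKM in DOX and at 99.9 and 53.4 FPKM in noDOX libraries (log2 difference 1.28; limma, adjusted p = 0.671). GSR, which reduces oxidised glutathione, was at 161 ± 28 FPKM in DOX and 84.9 ± 5.8 FPKM in noDOX cells (SD, n = 2 each), while CTH, which makes cysteine from cystathionine, was at 3.71 ± 0.00 FPKM in DOX and 9.41 ± 5.24 FPKM in noDOX cells. GCLM, the modifier subunit, was at 63.3 ± 12.4 FPKM in DOX and 36.2 ± 13.5 FPKM in noDOX cells. The median turned to -0.02 without DOX library 2 and to -0.12 without noDOX library 2. Of 18 NRF2 targets other than SLC7A11, 3 of them in the glutathione list, 0 were called (limma). An unadjusted p under 0.05 was found for 3 of the 18, GCLC and GSR again among them, against 6.34% of all genes tested. Their median was 0.39, with 12 positive and 6 negative log2 differences. OSGIN1 was at 1.55 and ME1 at 0.61 on that scale, while TKT was at -0.52, HMOX1 at -0.45 and NQO1 at -0.08. Groups did not overlap in 9 of 18, 8 of them higher in DOX cells, against 32% and 14.7% of all genes tested. Without noDOX library 2 that median was 0.09.

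ATF4, the transcription factor of the amino acid starvation response, is known to raise SLC7A11, SLC7A5, SLC7A1 and SLC3A2. Of 18 other genes of its pathway 0 were called (limma) and 4 had an unadjusted p under 0.05, against 6.34% of all genes tested. CTH, also counted in the glutathione list, was among the 4. There were 5 positive and 13 negative log2 differences, with a median of -0.38. Groups did not overlap in 6 of 18, against 32% of all genes tested. ATF4 itself (chosen with its values in view) had 191 and 382 FPKM in DOX and at 500.0 and 172 FPKM in noDOX libraries, again with DOX library 2 and noDOX library 1 as the high pair. ATF3, a stress-induced factor, was at 2.17 and 3.88 FPKM in DOX and at 10.9 and 7.40 FPKM in noDOX libraries (log2 difference -1.34; limma, adjusted p = 0.532). CEBPB was at 18.3 and 46.2 FPKM in DOX and at 119 and 117 FPKM in noDOX libraries (log2 difference -1.98; limma, adjusted p = 0.566), and PSPH, the last step of serine synthesis, had a log2 difference of 0.62. The sign of the median turned without DOX library 1 (0.04) and without noDOX library 1 (0.26).

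Genes that report amino acids to the growth kinase complex mTORC1 were counted last. Of 18 tested 0 were called, 0 had an unadjusted p under 0.05 (limma), and the median log2 difference was -0.10. Groups did not overlap in 4 of 18, against 32% of all genes tested. SESN3, a sestrin that restrains mTORC1, had the smallest p, with 2.22 and 1.41 FPKM in DOX and 0.948 and 0.785 FPKM in noDOX libraries (log2 difference 0.58; limma, adjusted p = 0.878). The kinase MTOR was at 8.82 ± 2.38 FPKM in DOX and 6.73 ± 0.98 FPKM in noDOX cells, and the Rag GTPases RRAGC and RRAGA had log2 differences of 0.33 and -0.34.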

How the data were processed

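The authors deposited 1 table of FPKM with 1 column for each library. Per the submitters' processing notes, TopHat2 2.0.10, Bowtie, Cufflinks 2.2.1 and Cuffdiff were used on hg19. Annotation, strandedness and library scaling were not given in the sources used here. This table holds no counts, so fragments behind a value were estimated. FPKM times transcript length of genes with 1 GENCODE 29 transcript over 1000 bases has a lowest step, taken as 1 fragment. Of products between 0.5 and 3.5 steps, 73.5 to 77.2% lay within 0.2 of a whole number. The step was set from 84 of 167 and 72 of 170 such products in DOX libraries 1 and 2. For noDOX libraries 1 and 2 it was set from 82 of 201 and 65 of 156. These lie near 1 step by construction, so that share does not test the estimate.

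Genes averaging 1 FPKM or more were tested on log2(FPKM + 1), a pseudocount of 1. The model, 1 mean for each group, was fitted by limma 3.58.1 (R 4.3.3) with its trend option, two-sided p-values and a threshold of 0.05 after Benjamini-Hochberg adjustment over all tested genes. There were 2 residual degrees of freedom. Small RNA genes were recognised by symbol (microRNA, small nuclear, small nucleolar and related prefixes). The 10 genes and the lists were chosen with earlier results of these data known. The genes named beyond the 10 are up to 4 of each list with the smallest p, and the 5 tested genes nearest to SLC7A8, and overlapping or neighbouring genes; others were chosen after their values were seen. Alternatives covered pseudocount, filter, scaling, moderation, small RNA genes, a replicate block and each library left out. Start-site windows come from RefSeq on GRCh38.p14, so no coordinate of the authors' build is printed. Protein sequences were not used here.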

Additional observations from a re-analysis of the deposited data

How the results depend on the processing

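With both DOX values of SLC7A8, which chose the set, far above both noDOX values, the sign of its difference could not turn in the alternative runs. The size of that difference is given as a description. It ran from 3.68 to 4.31 on the log2(FPKM + 1) scale when 1 library was left out, and was 6.50 with a pseudocount of 0.1. Among the other 9 genes 0 were called (limma) in each alternative run, the crossed pairing included, although SLC3A1 was not tested at a minimum mean of 5 FPKM. Signs turned for SLC7A1 (0.065 when scaled to the sum outside small RNA genes, and -0.13 to 0.024 with 1 library left out), SLC7A5 (-0.19 to 0.25), SLC7A7 (-0.0019 to 0.80), SLC3A2 (-0.39 to 0.77) and SLC1A5 (-0.63 to 0.29), all with 1 library left out. That scaling moved the median of all genes from -0.04 to 0.07. The 11 genes called over the whole table, 10 of them small RNA genes, became 1 without a filter and 1 with small RNA genes left out, and 41 to 63 with 1 library left out, where the lone library is assumed to vary like the other group. The cause was not tested.

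Replicate numbers are not said to pair libraries, and the same-numbered libraries deviated in opposite directions (r = -0.352 across 12504 tested genes, which are not independent replicates, and -0.758 outside small RNA classes). With the replicate block 65 genes were called, among them the carrier SLC43A2 (limma, adjusted p = 0.0283, and 0.0975 to 0.663 in the other alternatives), the one gene of the lists called in any alternative, and with a crossed pairing, added after seeing the data, 7. List medians moved for other carriers (0.10 when scaled to that sum, 0.085 with quantile normalization, -0.12 to 0.082 with 1 library left out), glutathione synthesis (-0.12 to 0.55), NRF2 targets (0.095 to 0.61), the ATF4 pathway (-0.94 to 0.26) and amino acid sensing (0.034 when scaled, -0.16 to 0.125 with 1 library left out). Estimated depth limits the noDOX level of SLC7A8 more than any DOX level of the 10 genes.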
